A study of Mus musculus with 30 samples.

Results

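The genes described here are 10 genes of antigen presentation by major histocompatibility complex (MHC) molecules, chosen by symbol and read from the 47643 genes of a microglial RNA-seq table. They are *H2-Aa*, *H2-Ab1*, *H2-Eb1*, *Cd74* and *Ciita* of the class II route, and *H2-K1*, *H2-D1*, *B2m*, *Tap1* and *Tap2* of the class I route. All 10 were found. A gene was tested when its mean over all libraries was at least 0.1 FPKM (fragments per kilobase of transcript, relative to all mapped fragments), which held for 16897 genes and for 9 of the 10. *Ciita*, with a mean of 0.0972 FPKM, is given by its values.

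Microglia were sorted by CD11b and CD45 from the brains of 3 month-old mice, without cerebellum and olfactory bulbs, and each library is 1 mouse. Homo mice (5 males and 5 females) were *Bin1* flox/flox with Cx3Cr1-Cre, Het mice (6 males and 5 females) were *Bin1* wt/flox with Cx3Cr1-Cre, and mice labelled WT (5 males and 4 females) are given by the study as *Bin1* wt/flox without Cre. The floxed line was on a B6.129S6 background and the Cre line on B6J.B6N. The Cre lies in the *Cx3cr1* locus, so that every Cre-positive group differs from WT by that allele as well as by the loss of *Bin1*, and the effects of these cannot be told apart. The *Cx3cr1* promoter is active in microglia and in other cells of the myeloid lineage. The growth protocol of the labels instead names microglia cultured from pups, and the study's methods were followed.

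MHC class II molecules are heterodimers of an alpha and a beta chain that show peptides of ingested proteins to CD4+ T cells. The invariant chain, encoded by *Cd74*, escorts them to endosomes, and the transactivator encoded by *Ciita* is required for their transcription. Class I molecules show peptides of cytosolic proteins to CD8+ T cells. They consist of a heavy chain and beta-2 microglobulin, and the transporter of Tap1 and Tap2 carries peptides into the endoplasmic reticulum to them. Resting microglia hold little class II, whereas border-associated macrophages, dendritic cells and B cells hold more. Interferon gamma induces both routes.

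The promoters are shown because genes of each route varied together across the libraries. RefSeq on GRCm38.p6 gave the 250 bases before the start of 6 of the 10 genes, *H2-Aa*, *H2-Eb1*, *H2-K1*, *H2-D1*, *B2m* and *Tap1*. Capitals mark matches on either strand to CCAAT, the core of the Y box to which NF-Y binds. In *B2m* they also mark a match to GAAANNGAAA, a repeat of the kind found in interferon-stimulated elements. Both strands were searched, and the matches did not overlap. The lines below give stretches without annotated exons, 5′ to 3′ on the strand of the gene. *H2-Aa* is chr17:34287824-34288073 on the minus strand, *H2-Eb1* is chr17:34305721-34305866 on the plus strand, *H2-K1* is chr17:34000348-34000597 on the minus strand, and *B2m* is chr2:122147437-122147685 on the plus strand.
*H2-Aa*: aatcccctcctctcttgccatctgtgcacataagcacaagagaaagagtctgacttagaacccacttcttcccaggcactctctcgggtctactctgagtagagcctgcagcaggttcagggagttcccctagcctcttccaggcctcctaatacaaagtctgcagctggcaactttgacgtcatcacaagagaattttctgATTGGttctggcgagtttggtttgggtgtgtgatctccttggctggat
*H2-Eb1*: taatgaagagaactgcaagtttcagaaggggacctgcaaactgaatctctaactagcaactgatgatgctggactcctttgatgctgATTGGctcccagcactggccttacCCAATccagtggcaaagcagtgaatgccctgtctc
*H2-K1*: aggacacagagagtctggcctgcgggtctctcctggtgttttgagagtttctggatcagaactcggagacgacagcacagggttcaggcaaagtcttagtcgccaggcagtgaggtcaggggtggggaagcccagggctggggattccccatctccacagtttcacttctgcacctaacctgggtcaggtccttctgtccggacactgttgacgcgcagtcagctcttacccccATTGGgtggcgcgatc
*B2m*: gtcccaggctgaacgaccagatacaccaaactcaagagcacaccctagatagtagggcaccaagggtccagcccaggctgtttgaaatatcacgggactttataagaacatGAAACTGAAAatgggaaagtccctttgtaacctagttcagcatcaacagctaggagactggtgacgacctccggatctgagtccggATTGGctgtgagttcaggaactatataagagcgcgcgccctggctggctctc

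CCAAT lay in the windows of all 6 genes, as it did in 33.8% of 32536 RefSeq promoter windows of this length. Its first base was 48 bases before the start of *H2-Aa*, 59 and 35 before *H2-Eb1*, 16 before *H2-K1* and 53 before *B2m*. For a second RefSeq start of *H2-K1* it was 30 and 6 bases before. It was 76 and 53 before *H2-D1* and 222 before *Tap1*, whose windows are not shown because 0 of their bases lay outside annotated exons. GAAANNGAAA lay in the window of *B2m*, 139 bases before the start, and in 2.98% of all windows. It was not found in the other 5 windows. Only this exact string was searched, so that other forms of interferon-stimulated elements would be missed. These matches describe letters, and binding was not measured.

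Among the 10 genes, *B2m* had the highest level, at a mean of 2305 FPKM over the 30 libraries, followed by the heavy chains *H2-D1* at 459 and *H2-K1* at 265. This order, with *Cd74* next at 75.7 FPKM, held in 30 of 30 libraries. *Cd74* exceeded *Tap2* (56.3 FPKM) in 20 of 30 libraries and *H2-Ab1* (33.7 FPKM) exceeded *Tap1* (24.6 FPKM) in 21 of 30, so that the order of these neighbours was not the same in every mouse. *Tap1* exceeded *H2-Aa* (16.9 FPKM) in 23 libraries, and *H2-Aa* exceeded *H2-Eb1* (11.9 FPKM) in 29. FPKM are per length and allow these comparisons between genes. The highest library exceeded the lowest 7.61-fold for *H2-Aa*, 5.48-fold for *H2-Eb1*, 4.35-fold for *Cd74* and 3.57-fold for *H2-Ab1*, but 2.22-fold for *H2-K1*, 2.12-fold for *B2m*, 2.08-fold for *H2-D1*, 1.78-fold for *Tap2* and 1.52-fold for *Tap1*.

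*Bin1* was lower in every Cre-positive library than in every WT library of its sex, as was *Cx3cr1*. The libraries labelled Het-F-0206 (*Bin1* 42.7 FPKM, *Cx3cr1* 13.9 FPKM) and Het-M-0199 (*Bin1* 51.8 FPKM) stood apart from the other Het mice, and results are also given without them where a call changed. Microglial markers summed to between 19136 and 26918 FPKM in every library. Relative depth, with the median library at 1, lay between 0.669 and 1.41. Mouse numbers fall into an early and a late range, and early numbers were carried by 3 male Homo, 2 male Het and 1 female WT mouse, and by 0 WT males. In males the number range thus partly follows the genotype. What the numbers stand for is not given in the sources used here.

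The class II genes had lower mean levels in the Cre-positive males than in WT males. *Cd74* fell 2.32-fold in Homo males, with no overlap between the groups, whereas the chains *H2-Aa*, *H2-Ab1* and *H2-Eb1* had 1.88- to 2.41-fold lower values that did not pass the test. In females the Cre-positive and WT libraries overlapped for each of the 4 genes. The difference between the sexes did not pass the test.

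*H2-Aa* (ENSMUSG00000036594, chromosome 17 of GRCm38 from 34282744 to 34287823, minus strand) encodes the alpha chain of the I-A molecule. In WT males it was at 15.3, 26.4, 28.4, 32.4 and 37.5 FPKM. In Homo males it was at 6.65, 7.90, 9.76, 19.0 and 22.7 FPKM, and in the 6 Het males it ranged from 7.64 to 37.6 with a median of 9.72. The lowest WT library, WT-M-0176, lay below 2 Homo libraries, and all but 1 of the Het libraries lay below all WT libraries. The exception was Het-M-0108, at 37.6 FPKM, the highest of the 30. WT females were at 15.3, 17.2, 18.0 and 18.5 FPKM, within a narrower range than Homo females at 6.40, 13.7, 14.9, 20.0 and 27.9 and Het females at 4.94, 7.66, 12.2, 12.5 and 29.1.

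*H2-Ab1* (ENSMUSG00000073421, chromosome 17 from 34257689 to 34269419, plus strand) encodes the partner beta chain. WT males were at 33.9, 44.1, 51.5, 58.7 and 58.8 FPKM and Homo males at 21.2, 22.9, 23.2, 33.4 and 39.9. Only the highest Homo library passed the lowest WT library. Het males ranged from 16.5 to 57.5 FPKM with a median of 24.01. In females, *H2-Ab1* was at 33.8 ± 4.82 FPKM (SD, n = 4) for WT, 30.8 ± 14.1 (SD, n = 5) for Het and 33.3 ± 9.64 (SD, n = 5) for Homo mice.

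*H2-Eb1* (ENSMUSG00000060586, chromosome 17 from 34305867 to 34316674, plus strand), the beta chain of the I-E molecule, was at 10.7, 19.9, 20.5, 20.8 and 23.9 FPKM in male WT and at 4.48, 6.04, 7.89, 12.5 and 14.01 FPKM in Homo males. Again the overlap came from WT-M-0176, the lowest WT library, which 2 Homo libraries exceeded. Het males ranged from 4.36 to 22.7 FPKM with a median of 6.05. Female means were 11.5 ± 1.84 FPKM (SD, n = 4) for WT, 10.8 ± 6.69 (SD, n = 5) for Het and 12.8 ± 6.37 (SD, n = 5) for Homo mice.

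*Cd74* (ENSMUSG00000024610, chromosome 18 from 60803848 to 60812652, plus strand) was at 80.7, 102, 119, 130.4 and 155 FPKM in WT males. In Homo males it was at 38.0, 44.5, 53.7, 55.7 and 78.3 FPKM, so that the highest Homo library lay just below the lowest WT library. Het males ranged from 35.6 to 126 FPKM with a median of 50.4, and 5 of the 6 lay below all WT libraries. WT females were at 68.5, 69.8, 78.1 and 93.7 FPKM, Homo females at 40.3, 61.4, 85.1, 86.8 and 112, and Het females at 42.0, 51.4, 59.0, 72.6 and 134. Each Cre-positive female group extended both below and above the WT range.

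*Ciita* (ENSMUSG00000022504, chromosome 16 from 10480059 to 10528418, plus strand) was at 0.0784 to 0.223 FPKM in WT males, with a median of 0.184, and at 0.0206 to 0.229 FPKM in Homo males, with a median of 0.0817. In Het males it was at 0.0207 to 0.234 FPKM with a median of 0.0627. WT females were at 0, 0.0143, 0.0325 and 0.0732 FPKM, and 3 of these 4 lay below the median of every other group. These levels lie below the minimum for testing, and a difference was not tested at this depth except in the alternative without a filter. There the log2 fold changes were -0.58 in Homo and -0.59 in Het males, and 0.66 in Homo and 0.63 in Het females, and none of them passed the test.

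**Figure D1:**
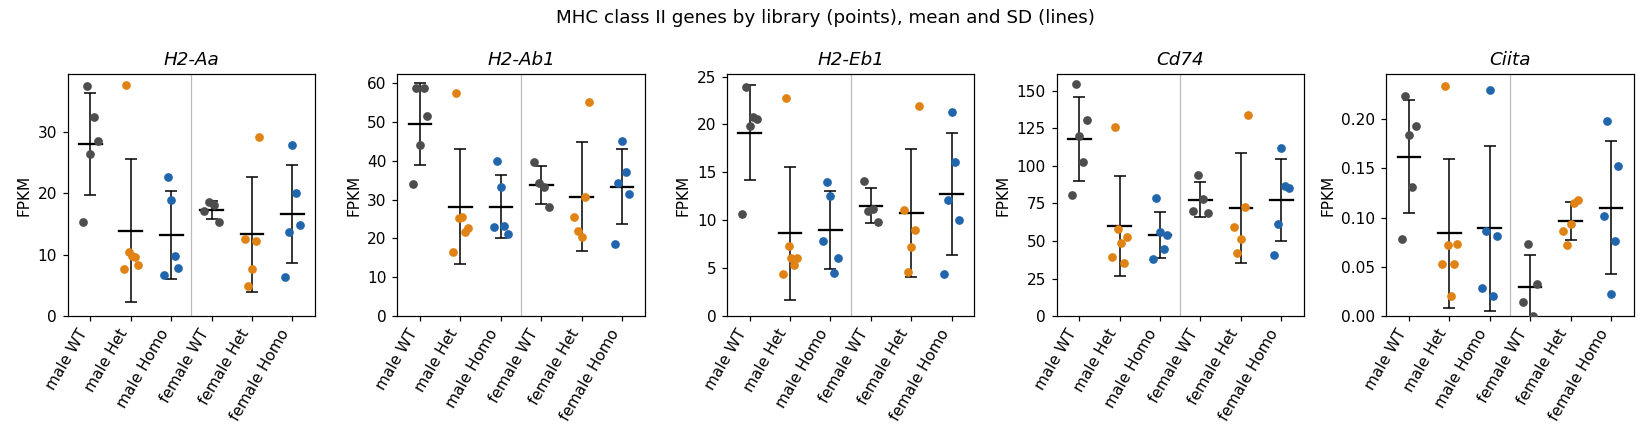
FPKM of the class II genes *H2-Aa*, *H2-Ab1*, *H2-Eb1*, *Cd74* and *Ciita* on linear axes, with a point for each library and lines for the mean and SD of each of the 6 groups. Male Het and Homo libraries lie mostly below male WT, except Het-M-0108 at the top of the male Het groups, and the female groups overlap.

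Levels were compared by limma on log2(FPKM + 0.1) in a fit of all 6 groups, and a gene was called when its Benjamini-Hochberg adjusted p over all tested genes was below 0.05 and its fold change above 1.5. In male Homo against WT mice, 1 of the 9 genes tested was called, *Cd74*, with a log2 fold change of -1.21 (SE, the standard error, 0.31, adjusted p = 0.0318 by limma), lower in 5 of 5 libraries than every WT library. Of all tested genes, 1.81% were called in this contrast. At an unadjusted p below 0.05 there were 5 of the 9, against 22.5% of all tested genes. *H2-Ab1* had a log2 fold change of -0.91 (SE 0.27, adjusted p = 0.0612 by limma). The values of *H2-Aa* and *H2-Eb1* were -1.27 (SE 0.43, adjusted p = 0.0851) and -1.24 (SE 0.41, adjusted p = 0.0799). The 4 tested class II genes had a median log2 fold change of -1.23, against 0.03 over all tested genes. *Cd74* was the member that did not overlap in this contrast, where 1.37% of all tested genes were lower and 2.56% higher without overlap.

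The call of *Cd74* in Homo males depended on the libraries and the settings. It was lost in 5 of 10 fits with 1 library removed, without Homo-M-0093 (adjusted p = 0.112), Homo-M-0109 (0.0734), WT-M-0177 (0.0916), WT-M-0178 (0.0685) or WT-M-0258 (0.0546), at log2 fold changes between -1.21 and -1.07. With late numbered mice alone, which keeps 2 Homo and all 5 WT males, its log2 fold change was -1.23 (adjusted p = 0.301 by limma), and when the number range was fitted as a covariate it was -1.28 (adjusted p = 0.146 by limma). *Cd74* in early against late numbered mice of the Cre-positive male groups differed by a log2 fold change of 0.23 (SE 0.32, adjusted p = 0.637 by limma).

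Het males had class II values like those of Homo males, but 0 of the 9 genes were called, where 0.154% of all tested genes were called. At an unadjusted p below 0.05 there were 4 of the 9, against 14.2% of all tested genes. *H2-Eb1* had a log2 fold change of -1.41 (SE 0.39, adjusted p = 0.134 by limma) and *H2-Aa* of -1.28 (SE 0.41, adjusted p = 0.192). For *Cd74* and *H2-Ab1* the values were -1.15 (SE 0.29, adjusted p = 0.0983) and -0.97 (SE 0.26, adjusted p = 0.122). Het-M-0108 decided this count. Without that library *Cd74* (log2 fold change -1.38, adjusted p = 0.0351 by limma), *H2-Ab1* (-1.19, adjusted p = 0.0450) and *H2-Eb1* (-1.73, adjusted p = 0.0462) were called. Both contrasts use the same 5 WT males.

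Homo and Het males were also compared directly. By limma 0 of the 9 genes were called and 0 had an unadjusted p below 0.05. The contrast called 0% of all tested genes, and 651 had an unadjusted p below 0.05. *Bin1* itself had a log2 fold change of -1.21 (SE 0.25, adjusted p = 0.624 by limma) and was not called. A count of 0 here thus does not show that the groups are alike. For *Cd74* the log2 difference of Homo and Het males was -0.06 with a 95% interval from -0.66 to 0.54, and for *H2-Aa* it was 0.01 with an interval from -0.82 to 0.84. Differences of either sign within these intervals remain possible.

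In females the class II values were close to WT on average but spread widely. The log2 fold changes in Homo mice lay between -0.21 for *H2-Aa* (SE 0.45) and -0.02 for *H2-Eb1* (SE 0.43). In Het mice they lay between -0.63 for *H2-Aa* (SE 0.45) and -0.23 for *H2-Ab1* (SE 0.29). Het-F-0206 was the lowest Het female for *H2-Aa*, *H2-Eb1* and *Cd74*. With a library left out, the Het values were -0.98 to -0.34 for *H2-Aa*, -0.59 to -0.03 for *H2-Eb1*, -0.48 to -0.06 for *Cd74* and -0.46 to -0.11 for *H2-Ab1*. The adjusted p was 1 for each of these 4 genes in both contrasts by limma. The signs of the female Homo values are not firm, since *H2-Aa*, *H2-Ab1*, *H2-Eb1* and *Cd74* all turned positive without Homo-F-0193, the lowest library of that group for each.

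The Homo effect of males minus the Homo effect of females was -1.13 for *Cd74* (SE 0.45, unadjusted p = 0.0168, adjusted p = 0.526 by limma), -1.22 for *H2-Eb1* (SE 0.59, adjusted p = 0.536), -1.06 for *H2-Aa* (SE 0.62, adjusted p = 0.588) and -0.84 for *H2-Ab1* (SE 0.40, adjusted p = 0.535). By limma 0 of the 9 genes were called in this interaction and 4 had an unadjusted p below 0.05. The share called was 0% of all tested genes, with 1569 at an unadjusted p below 0.05. In the interaction of sex with Het it was also 0% of all tested genes, with 0 of the 9 genes called and 1 at an unadjusted p below 0.05 (*Cd74*, -0.92, SE 0.44, adjusted p = 0.860). At that threshold were 4.53% of all tested genes. An effect in males that differs from females is therefore not shown for any of these genes.

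Among WT mice, females had lower class II values than males, with log2 differences of female and male WT between -0.68 for *H2-Eb1* (SE 0.43) and -0.52 for *H2-Ab1* (SE 0.29). By limma 0 of the 9 genes were called, 0 had an unadjusted p below 0.05, and the adjusted p was 1 for each, in a contrast that called 0.0473% of all tested genes. Male Homo and Het means of the chains were below the female WT means. The male change is thus measured against a male WT group whose class II means, such as 118 FPKM for *Cd74* against 77.5 in female WT, were the highest of the 6 groups.

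The class I genes gave another picture. *H2-K1*, *H2-D1* and *B2m* were higher in every Cre-positive female than in every female WT mouse, by 1.245- to 1.496-fold in Homo and 1.32- to 1.47-fold in Het mice, but none of them was called. These values lie below the fold threshold of 1.5, and their adjusted p was 0.167 or more by limma, so that neither condition for a call was met. In males their libraries overlapped between the groups. In females *Tap1* and *Tap2* had smaller differences.

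*H2-K1* (ENSMUSG00000061232, chromosome 17 from 33996017 to 34000347, minus strand), a class I heavy chain, was at 196, 204, 215 and 222 FPKM in WT females. In Homo females it was at 269, 302, 307, 323 and 375 FPKM and in Het females at 267, 286, 306, 341 and 349.7 FPKM. The lowest Cre-positive female thus lay above the highest WT female by more than the whole WT range. WT males were at 169, 193.4, 200.8, 233.9 and 300.3 FPKM, Homo males at 236, 237, 269.8, 270.5 and 289, and Het males at 223 to 309 with a median of 256.6. One male WT library, WT-M-0258, exceeded all male Homo libraries.

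*H2-D1* (ENSMUSG00000073411, chromosome 17 from 35262730 to 35267499, plus strand), the other heavy chain, was at 366, 369.7, 393 and 422 FPKM in WT females. Homo females were at 491, 506, 541, 606 and 643 FPKM and Het females at 479, 481, 527, 600.0 and 645. The highest value was that of Het-F-0206. Male means were 383 ± 64.8 FPKM (SD, n = 5) for WT, 454 ± 87.5 (SD, n = 6) for Het and 411 ± 62.5 (SD, n = 5) for Homo mice.

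*B2m* (ENSMUSG00000060802, chromosome 2 from 122147686 to 122153083, plus strand) encodes beta-2 microglobulin, the invariant partner of every class I heavy chain. It was at 1769.7, 2047, 2080.4 and 2161 FPKM in WT females, at 2309, 2439.8, 2454, 2551 and 2804 in Homo females and at 2471, 2531, 2645, 2731 and 3000.2 in Het females. The groups did not overlap. In males the means were 2201 ± 352 FPKM (SD, n = 5) for WT, 2175 ± 451 (SD, n = 6) for Het and 2219 ± 629 (SD, n = 5) for Homo mice. The male Homo libraries split by number, since the 3 early numbered mice were at 1415 to 2113 FPKM and the 2 late numbered mice at 2746 to 2946.

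*Tap1* (ENSMUSG00000037321, chromosome 17 from 34187553 to 34197225, plus strand) was at 21.9 ± 1.12 FPKM (SD, n = 4) for female WT, 26.5 ± 2.64 (SD, n = 5) for female Het and 25.6 ± 1.42 (SD, n = 5) for Homo females. In males it was at 22.1 ± 2.08 FPKM (SD, n = 5) for WT, 25.2 ± 3.47 (SD, n = 6) for Het and 25.5 ± 2.33 (SD, n = 5) for Homo mice. *Tap2* (ENSMUSG00000024339, chromosome 17 from 34203527 to 34216321, plus strand), its partner in the transporter, was at 58.8 ± 6.83 FPKM (SD, n = 4), 59.4 ± 4.30 (SD, n = 5) and 59.5 ± 4.90 (SD, n = 5) for female WT, Het and Homo mice. In males its means were 58.9 ± 4.97 FPKM (SD, n = 5) for WT, 53.4 ± 11.6 (SD, n = 6) for Het and 48.8 ± 5.67 (SD, n = 5) for Homo mice. The ratio of *Tap2* to *Tap1* was 2.68 ± 0.30 (SD, n = 5) for male WT and 1.94 ± 0.38 (SD, n = 5) for Homo males, and 2.69 ± 0.29 (SD, n = 4) and 2.33 ± 0.23 (SD, n = 5) for the same groups of females.

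**Figure D2:**
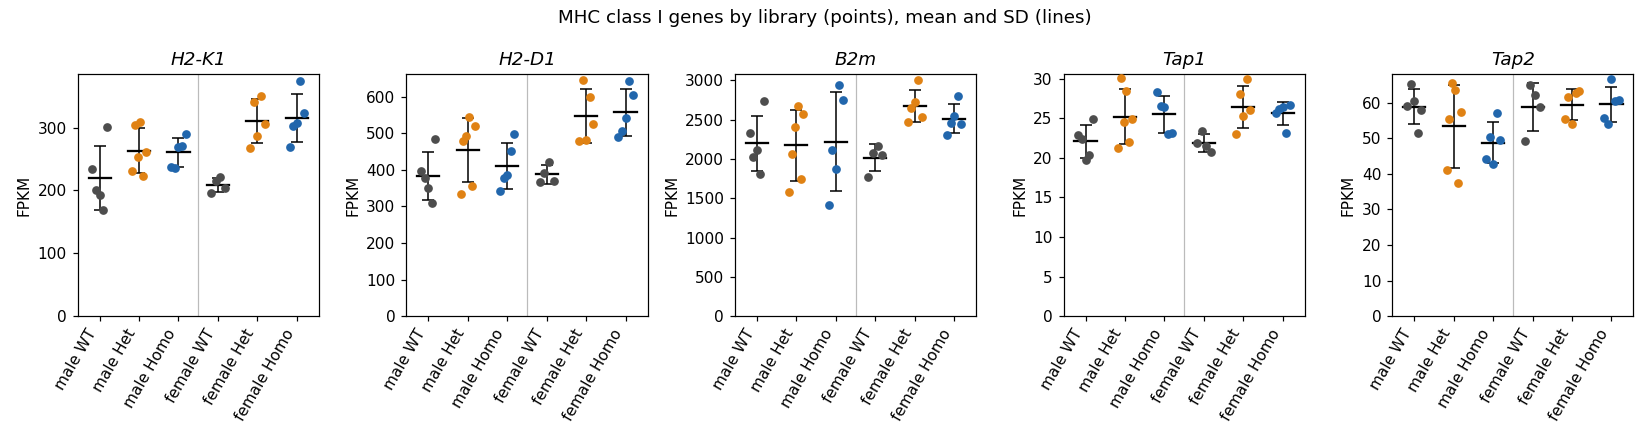
FPKM of the class I genes *H2-K1*, *H2-D1*, *B2m*, *Tap1* and *Tap2* on linear axes from 0, with a point for each library and lines for the mean and SD of each of the 6 groups. Female Het and Homo libraries of *H2-K1*, *H2-D1* and *B2m* all lie above the 4 female WT libraries, and the male groups overlap.

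By limma, *H2-K1* had a log2 fold change of 0.58 in female Homo (SE 0.14, adjusted p = 0.232) and 0.56 in Het females (SE 0.14, adjusted p = 0.167), higher in 5 of 5 libraries of each. *H2-D1* had values of 0.52 (SE 0.17, adjusted p = 0.918) and 0.48 (SE 0.17, adjusted p = 0.730). For *B2m* the values were 0.32 (SE 0.21) and 0.40 (SE 0.21), with an adjusted p of 1 in both. In each female contrast 0 of the 9 genes were called. At an unadjusted p below 0.05 there were 2 in Homo and 3 in Het mice, against 3.49% and 3.95% of all tested genes. Of all tested genes, 0.071% were called in female Homo and 0.13% in Het females. *Bin1* itself, at -1.07 in Het females (SE 0.28, adjusted p = 0.1625 by limma), was not called there. The 3 genes without overlap were 3 of the 10, in each case higher, where 1.65% of all tested genes in female Homo and 1.58% in Het females were higher without overlap. Lower without overlap were 0 of the 10, against 0.663% and 0.633% of all tested genes. These 3 genes varied together across libraries and are not independent of each other, and both contrasts use the same 4 WT females.

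*H2-K1* was called in Homo females with array weights, which give outlying libraries less weight, at 0.5854 on the log2 scale (limma, adjusted p = 0.0138). This only just passed the fold threshold of 1.5. In Het females the adjusted p was then 0.0171 at a log2 fold change of 0.54, below the fold threshold. The median log2 fold change of the 5 class I genes was 0.32 in female Homo and 0.40 in Het females, against 0.00 over all tested genes in both. Homo and Het females differed by 0.02 on the log2 scale for *H2-K1*, with a 95% interval from -0.26 to 0.30, and 0 of the 9 genes were called between these groups, with 0 at an unadjusted p below 0.05 and 0.0118% of all tested genes called.

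In males the log2 fold changes of *H2-K1* were 0.19 in Homo (SE 0.14, adjusted p = 0.418 by limma) and 0.21 in Het mice (SE 0.13, adjusted p = 0.456). *H2-D1* had values of 0.02 and 0.16 and *B2m* of -0.11 and -0.10. *Tap2* was lower in Homo males at a log2 fold change of -0.36 (SE 0.15, adjusted p = 0.167 by limma). None of the class I genes was separated in Het males, nor was any class II gene, where 0.515% of all tested genes were higher and 0.326% lower without overlap.

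*B2m* and *H2-D1* had lower values in the early numbered Cre-positive males, though neither was called. Early numbered Het and Homo males were lower than late numbered ones by a log2 difference of -0.66 for *B2m* (SE 0.21, adjusted p = 0.0573 by limma) and -0.45 for *H2-D1* (SE 0.16, adjusted p = 0.0851). Among late numbered mice alone, Homo against WT males gave a log2 fold change of 0.38 for *B2m* (SE 0.18, adjusted p = 0.626), 0.32 for *H2-D1* (SE 0.18, adjusted p = 0.744) and 0.38 for *H2-K1* (SE 0.17, adjusted p = 0.615), so that *B2m* changed its sign. The sex by Homo interaction of *H2-D1* was -0.50 (SE 0.24, adjusted p = 0.535) and that of *H2-K1* -0.39 (SE 0.20, adjusted p = 0.545).

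**Figure D3:**
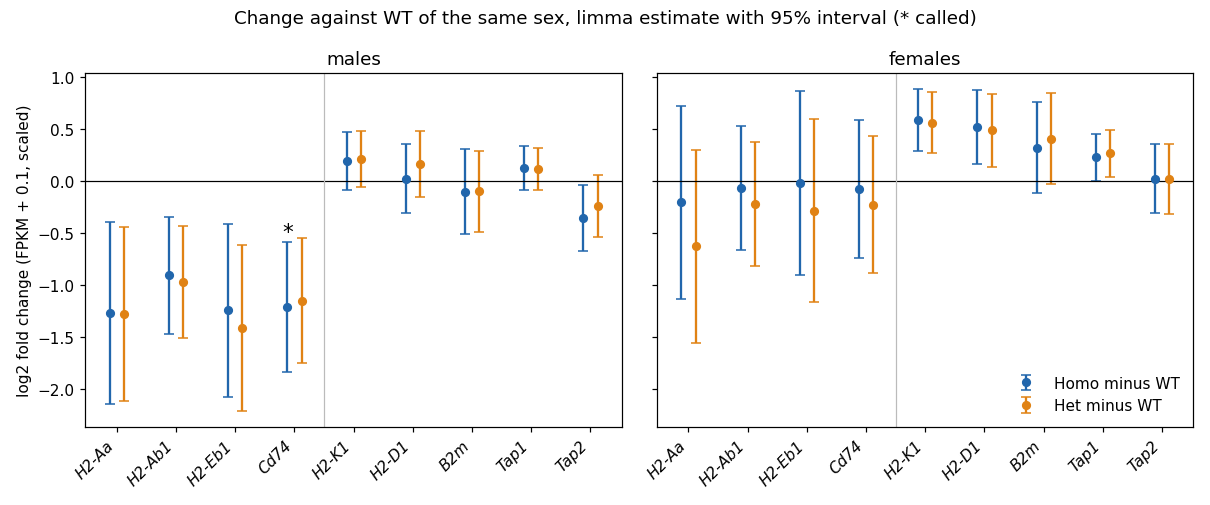
Log2 fold change of the 9 tested genes against WT of the same sex, on the log2(FPKM + 0.1) scale after scaling, with points for the limma estimates and bars for 95% intervals, for Homo and Het mice. The class II genes lie between -1.41 and -0.91 in males, where the star marks the call of *Cd74* at -1.21, and the class I genes between 0.02 and 0.58 in females.

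The class II genes varied together from mouse to mouse, and so did the class I genes, while the correlations between the routes were weaker. Over the 30 libraries, with the mean of each group subtracted from the log2 values, Pearson's r was 0.94 between *H2-Aa* and *H2-Ab1* (Spearman's rho 0.89), 0.94 between *H2-Aa* and *H2-Eb1* (rho 0.89) and 0.91 between *H2-Aa* and *Cd74* (rho 0.80). Without the 2 libraries farthest from the median of *H2-Aa*, these were 0.90, 0.91 and 0.85. For *Ciita* and *H2-Aa* r was 0.41 and 0.25 without those 2 libraries. Among class I genes, r was 0.91 between *H2-K1* and *H2-D1*, 0.89 between *H2-D1* and *B2m*, and 0.65 between *Tap1* and *Tap2*. Over the 6 pairs of the 3 chains and *Cd74* r was 0.87 to 0.94, and over the 10 class I pairs 0.46 to 0.91. Between the routes, r was -0.03 to 0.41 over the 15 pairs of a class II chain and a class I gene, lowest for *H2-Eb1* and *B2m* and highest for *H2-Ab1* and *Tap1*. *Cd74* had r of 0.30 to 0.50 with the 5 class I genes, highest with *Tap2* (rho 0.61). The values of a library share its depth and scaling, so these are descriptions.

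**Figure D4:**
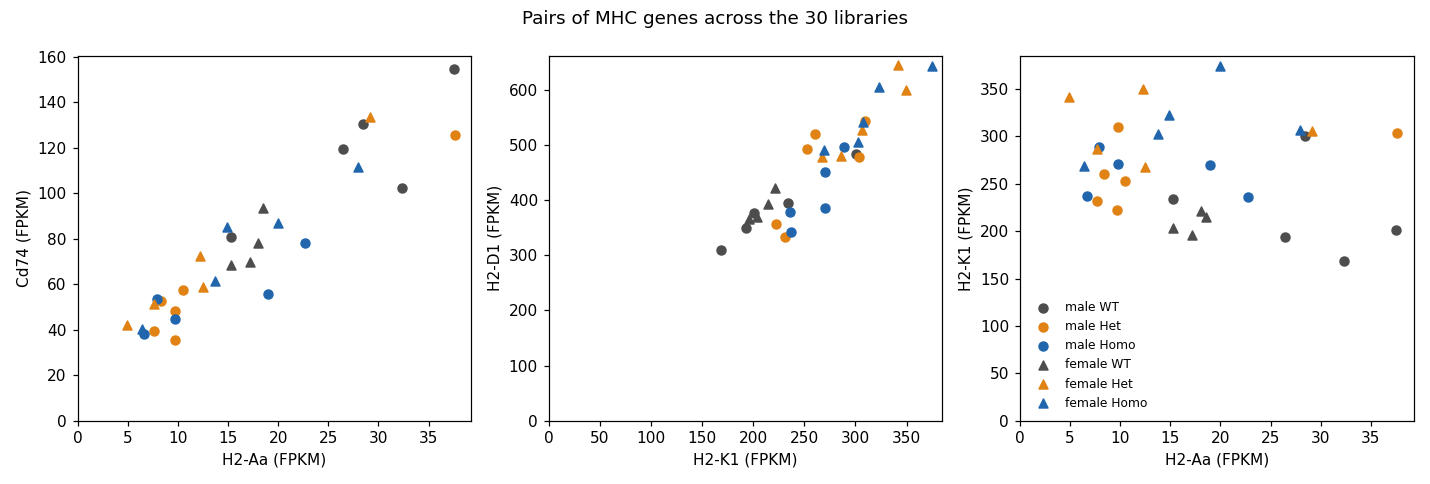
FPKM of *Cd74* against *H2-Aa*, of *H2-D1* against *H2-K1*, and of *H2-K1* against *H2-Aa*, with a point for each of the 30 libraries, coloured by genotype and shaped by sex. The first and second pairs rise together within and across groups, at r = 0.91 in both after centring on the groups, and the third pair does not, at r = 0.14.

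The ratio of *H2-Ab1* to *H2-Aa* was 1.82 ± 0.25 (SD, n = 5) for male WT and 2.41 ± 0.71 (SD, n = 5) for Homo males. *Cd74* relative to *H2-Ab1* was 2.40 ± 0.39 (SD, n = 5) and 1.95 ± 0.35 (SD, n = 5). In each case the groups overlapped.

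The genes most like *H2-Aa* among 11613 genes with a mean of at least 1 FPKM, by Pearson's r over the 30 group-centred libraries, were *Mgl2* (0.70), *Cbr2* (0.69), *Pf4* (0.65), *Whamm* (0.65) and *Ube2o* (0.64). *Mgl2*, a lectin of macrophages and dendritic cells, and *Cbr2* and *Pf4*, which are border-macrophage markers, were at low levels of 1.14, 2.56 and 7.83 FPKM. Closest to *H2-K1* were *Nfkbia* (0.85), which encodes the inhibitor of NF-kappaB, *Faim* (0.82), *Rbm8a* (0.81), *Fam217b* (0.80) and *Aes* (0.80).

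Markers of border-associated macrophages had lower values in Cre-positive males, as the class II genes did, and most also in Cre-positive females, but none was called. All 8 of the list had negative log2 fold changes in male Homo and Het males, at medians of -0.80 and -1.05, where 46.3% and 48.1% of all tested genes were negative. The value nearest 0 in Homo males was that of *Stab1*, at -0.0016. By limma 0 of the 8 were called in either, with 5 at an unadjusted p below 0.05 in Homo and 6 in Het males, against 22.5% and 14.2% of all tested genes. In male WT, Het and Homo mice *Mrc1* was at 7.67 ± 4.25 (SD, n = 5), 4.43 ± 0.67 (SD, n = 6) and 3.97 ± 0.89 FPKM (SD, n = 5), with a log2 fold change of -0.88 in Homo mice (adjusted p = 0.0781 by limma). *F13a1* was at 4.81 ± 1.93 (SD, n = 5), 1.99 ± 0.44 (SD, n = 6) and 2.22 ± 1.14 FPKM (SD, n = 5). The summed list was at 145 to 182 FPKM in male WT, 111 to 229 in male Het and 114 to 247 in Homo males, most of it *Stab1*. Without *Stab1*, a choice made after its values were seen, the sums were 17.5 to 47.0, 12.9 to 23.1 and 12.4 to 29.7 FPKM. In females these sums were 17.9 to 31.7 in WT, 13.001 to 36.0 in Het and 11.9 to 39.7 in Homo mice. Of the 8 markers, 6 in Homo and 7 in Het females had negative log2 fold changes, where 49.2% and 49.8% of all tested genes did. Their medians were -0.34 and -0.36, with 1 marker in each at an unadjusted p below 0.05. Over the 30 group-centred libraries the summed list had r = 0.30 with *H2-Aa* (rho 0.40), and 0.12 without the 2 libraries farthest from the median of *H2-Aa*. Since most of this sum is *Stab1*, this r mostly describes *Stab1*, and r without it was not computed. Taken singly, *Cbr2* and *Pf4* of the list had r = 0.69 and 0.65 with *H2-Aa*, while the rest of the list was not among the 5 genes most like it. The part of border-macrophage markers in the class II values was not tested. In bulk samples, fewer cells of a type and less RNA per cell cannot be told apart.

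By limma 0 of the 3 tested B cell, 7 tested dendritic cell and 1 tested T and NK cell genes were called in the 4 contrasts with WT. In Homo males 4 of the 7 neutrophil genes were called lower, where 1.81% of all tested genes were called in either direction. Of the 7 B cell genes, *Pax5* and *Blk* were at 0 in all 30 libraries, while *Ighm* and *Cd79b* had means of 287 and 30.3 FPKM. The B cell sum was 262 to 356 FPKM over all groups. The 9 dendritic cell genes summed to 23.9 to 39.7 FPKM in male WT and 28.7 to 41.3 in Homo males, and *Ccr7* was at 0 in 22 libraries and *Clec9a* in 13. At an unadjusted p below 0.05 there were 2 dendritic cell genes in male Homo, 0 in male Het, 0 in female Homo and 1 in Het females, and 1, 1, 0 and 1 B cell genes. The shares of all tested genes were 22.5%, 14.2%, 3.49% and 3.95%. Of the 7 tested dendritic cell genes, 5 had positive and 2 negative log2 fold changes in male Homo (median 0.27) and in male Het mice (median 0.08). The counts were 3 and 4 in Homo females (median -0.17) and 2 and 5 in Het females (median -0.10). *Cd209a* in Homo males and *Itgax* in Het females, given next, went against most of the list. *Cd209a*, a lectin of dendritic cells, was at 0.995 ± 0.51 FPKM (SD, n = 5) for male WT and 0.315 ± 0.23 (SD, n = 5) for Homo males (log2 fold change -1.52, SE 0.67, adjusted p = 0.176 by limma). *Itgax*, which encodes CD11c, was at 1.97 to 3.27 FPKM in female WT and 4.05 to 6.22 in Het females, without overlap (0.91, SE 0.27, adjusted p = 0.345). *Cd79b*, part of the B cell receptor, had a log2 fold change of -0.38 in Homo males (SE 0.15, adjusted p = 0.125). Of the T and NK cell genes, *Cd3e*, *Cd3g* and *Ncr1* were at 0 in all 30 libraries, and the list summed to at most 0.790 FPKM. The 5 monocyte genes summed to 5.89 to 18.5 FPKM in male WT and 3.92 to 9.60 in Homo males, where 1 of the 4 tested, *Chil3*, was called lower. The neutrophil list summed to 43.9 to 349 FPKM in male WT, 0 to 189.5 in male Het and 0 to 80.8 in Homo males, where the 4 calls were made. The part of these markers in the class II values was not tested.

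Other genes of the class II route had smaller differences. Of 17 further genes (the H2-DM and H2-O peptide editors, endosomal proteases and the RFX, NF-Y and CREB factors), 16 were tested and 0 were called by limma in each of the 4 contrasts with WT. At an unadjusted p below 0.05 there were 4 in male Homo, 1 in male Het, 0 in female Homo and 1 in Het females, where 22.5%, 14.2%, 3.49% and 3.95% of all tested genes were. Their median log2 fold change was -0.14 in male Homo, -0.07 in male Het, 0.04 in female Homo and 0.09 in Het females. *H2-DMa*, a chain of the peptide editor, was at 136 ± 10.97 FPKM (SD, n = 5) for male WT and 107 ± 16.5 (SD, n = 5) for Homo males (log2 fold change -0.43, SE 0.16, adjusted p = 0.116 by limma).

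Among 28 further genes of the class I route (other heavy chains, chaperones, the immunoproteasome and *Nlrc5*), 24 were tested. In Homo males 3 were called higher and 0 lower, in Het males 1 and 0, in Homo females 0 and 0, and in Het females 1 and 0. Of all tested genes, 1.81%, 0.154%, 0.071% and 0.13% were called in these contrasts in either direction. An unadjusted p below 0.05 was reached by 10, 9, 4 and 3 of the 24, against 22.5%, 14.2%, 3.49% and 3.95% of all tested genes. The median log2 fold change of the 24 was 0.01 in male Homo, 0.12 in male Het, 0.12 in female Homo and 0.12 in Het females. *Nlrc5*, the class I transactivator, was at 1.30 ± 0.85 FPKM (SD, n = 5) for male WT and 2.18 ± 0.45 (SD, n = 5) for Homo males, a log2 fold change of 0.77 (SE 0.32, adjusted p = 0.147 by limma).

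*H2-Q7*, a class Ib heavy chain of the Qa-2 antigens, had higher values in all 4 contrasts and was called in 3. It was at 2.14, 2.49, 2.87, 3.09 and 6.46 FPKM in male WT and at 6.80, 8.31, 8.47, 10.7 and 11.8 FPKM in Homo males, without overlap. Its log2 fold change was 1.41 in male Homo (SE 0.25, adjusted p = 0.00232 by limma), 1.25 in male Het (SE 0.24, adjusted p = 0.0158) and 1.30 in Het females (SE 0.26, adjusted p = 0.0228). In Homo females it was 1.19 (SE 0.26, adjusted p = 0.0818), also without overlap, at 6.64 to 11.5 FPKM against 2.76 to 5.58 in WT, and it was called there without WT-F-0122, with array weights, with late numbered mice alone and with a covariate for the number range (adjusted p from 0.0044 to 0.0468). With late numbered mice alone the calls in males were lost, at 1.41 in Homo (adjusted p = 0.0888) and 1.07 in Het mice (adjusted p = 0.137). In fits of the compared groups alone, adjusted p was 0.0592 in Homo males, 0.246 in Het males and 0.248 in Het females, and with no filter it was 0.0607 in Het females. The call in Het males was also lost without WT-M-0176 or WT-M-0178 (adjusted p = 0.0635 and 0.0532). That in Het females was lost without Het-F-0206, at 1.20 (adjusted p = 0.120), and without Het-F-0220, WT-F-0192, WT-F-0200 or WT-F-0207 (adjusted p from 0.0596 to 0.150).

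*H2-Q5* and *H2-K2*, whose symbols belong to the same class I family, were called in Homo males, at log2 fold changes of 1.20 (SE 0.31, adjusted p = 0.0332 by limma) and 1.02 (SE 0.26, adjusted p = 0.0345). Both calls were lost without any one of Homo-M-0093, Homo-M-0097, Homo-M-0109, WT-M-0176 and WT-M-0177, *H2-Q5* also without WT-M-0258 and *H2-K2* without WT-M-0178, and with late numbered mice alone the values were 0.85 and 0.52. *H2-Q7*, *H2-Q6*, *H2-Q5* and *H2-K2* are close paralogs of one another and of *H2-K1* and *H2-D1*, and how RSEM divided shared reads among them is uncertain. *H2-Q6* had log2 fold changes of 0.96, 0.85, 1.37 and 1.38 in male Homo, male Het, female Homo and Het females (adjusted p from 0.0612 to 0.201 by limma).

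Of 6 costimulatory and coinhibitory genes, 5 were tested and 1 was called in Homo males, where 1.81% of all tested genes were called. This was *Cd40*, the receptor through which T cells license presenting cells. It was at 0.345 ± 0.22 FPKM (SD, n = 5) for male WT and 1.15 ± 0.42 (SD, n = 5) for Homo males, a log2 fold change of 1.495 (SE 0.38, adjusted p = 0.0318 by limma). Its groups overlapped by 1 library, and the call was lost without Homo-M-0093, Homo-M-0109, WT-M-0176, WT-M-0177 or WT-M-0178 and with late numbered mice alone (1.49, adjusted p = 0.426). Its level is near the 0.1 added before log2, and with 1 added instead the value was 0.63 (adjusted p = 0.0561 by limma). The call was also lost with no filter (adjusted p = 0.0556), only the groups compared (0.109) and a number range covariate (0.201). In Het males the value was 1.59 (SE 0.36, adjusted p = 0.0668) and was called without Het-M-0210, WT-M-0202 or WT-M-0258, whereas in Homo and Het females it was 0.22 and 0.26 (SE 0.40 each). *Cd86*, a ligand of CD28, was at 214 ± 28.6 FPKM (SD, n = 5) for male WT and 289.6 ± 44.98 (SD, n = 5) for Homo males, a log2 fold change of 0.35 (SE 0.10, adjusted p = 0.0552 by limma).

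Of 10 genes of the interferon gamma axis, 9 were tested and 0 were called in any of the 4 contrasts. At an unadjusted p below 0.05 there were 1 in male Homo, 1 in male Het, 0 in female Homo and 1 in Het females. The shares of all tested genes were 22.5%, 14.2%, 3.49% and 3.95%. The median log2 fold change was -0.12 in male Homo, -0.10 in male Het, 0.03 in female Homo and 0.01 in Het females. *Irf1*, a transcription factor induced by interferons, was at 52.9 ± 3.30 FPKM (SD, n = 5) for male WT, 52.3 ± 2.58 (SD, n = 5) for male Homo, 51.8 ± 2.60 (SD, n = 4) for female WT and 56.5 ± 2.71 (SD, n = 5) for Homo females.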

How the data were processed

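The 30 libraries were grouped by their labels, and 6 further columns of the deposited table, which match no listed sample, were not used here. The authors aligned reads to mm10 with OSA4, estimated abundance with RSEM, and deposited FPKM on a linear scale. No read counts were used here, so depth is known only in relative terms, and no count model was used. FPKM were scaled by each library's median ratio to the geometric mean (genes of at least 1 FPKM), 0.1 was added before log2, which understates the change of low genes, and genes with a mean of at least 0.1 FPKM were tested with limma 3.58.1 in R 4.3.3 (all 6 groups, intensity trend, Benjamini-Hochberg adjustment). The script was tested on simulated data. Positions are from GENCODE M21 on GRCm38 (mm10), and promoters from RefSeq.

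The members and lists were chosen with earlier results of these data known. The genes named are the 10 members, *Bin1*, *Cx3cr1*, called genes of the related lists and the 5 genes most correlated with *H2-Aa* and with *H2-K1*. Other genes (*Ighm*, *Cd79b*, *Cd209a*, *Itgax*, *Mrc1*, *F13a1*, *H2-DMa*, *H2-Q6*, *Nlrc5*, *Cd86*, *Irf1*, and markers at 0) are list members named after their values were seen. Alternatives were other pseudocounts, filters, scalings and array weights, a fit of the groups compared, no fold threshold, the mouse number range, and leaving out libraries.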

Additional observations from a re-analysis of the deposited data

Results flagged for a closer look

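Each of the 60 combinations of a gene and a group was examined for a library far from the others by Dixon's test, which flags about 1 in 20 groups by chance, and 6 were found. In male Het mice, Het-M-0108 was the highest for all 5 class II genes. It was at 37.6 FPKM of *H2-Aa* against 7.64 to 10.5 in the other 5 libraries, 57.5 of *H2-Ab1* against 16.5 to 25.6, 22.7 of *H2-Eb1* against 4.36 to 7.29, 126 of *Cd74* against 35.6 to 57.7, and 0.234 of *Ciita* against 0.0207 to 0.0727. These 5 flags are the same library and genes that moved together. Its *H2-K1* value, 304 FPKM, lay below that of Het-M-0199 at 309. In female Homo mice, Homo-F-0234 was the lowest for *Tap1*, at 23.1 FPKM against 25.7 to 26.7, while it was the highest for *H2-K1*, at 375 FPKM.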

How the results depend on the processing

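Of 1127 log2 fold changes of the 9 tested genes and of *H2-Q7*, *H2-Q5*, *H2-K2* and *Cd40* (the latter 4 added after the data were seen) recomputed under alternatives, 1029 kept their direction and call, 54 lost the call, 12 gained one and 32 changed sign, each of these a value that was not called. The number of genes called in male Homo mice, 1 as reported, was 2 with a minimum mean of 1 FPKM, where *H2-Ab1* joined *Cd74*, and 0 with no filter, array weights, only the groups compared, late numbered mice alone or a number range covariate, and 0 to 1 with a library left out. It was 0 to 3 in male Het mice with a library left out, and 1 in female Homo mice with array weights. In the other 5 comparisons with 0 called, and in female Het mice, the count was 0 in every setting.

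The 32 sign changes on the log2 scale were as follows. In males, the change of *B2m* in Homo mice was 0.0838 with quantile normalization, 0.38 with late numbered mice alone and 0.24 when the number range was a covariate, and -0.24 to 0.0669 with a library left out. In Het mice it was 0.0369, 0.0751 and 0.0888 under the same 3 settings, and -0.18 to 0.0159 with a library left out. That of *H2-D1* in Homo mice was -0.0679 to 0.11 with a library left out. In female Homo mice, *H2-Eb1* was at 0.0255 with array weights, 0.0675 with late numbered mice alone and 0.14 with the covariate. With a library left out, it was at -0.25 to 0.32, *H2-Aa* at -0.44 to 0.0934, *H2-Ab1* at -0.20 to 0.12, *Cd74* at -0.24 to 0.13 and *Tap2* at -0.0767 to 0.0770. *Tap2* was at -0.0780 with late numbered mice alone and -0.0708 with the covariate in female Homo mice. In female Het mice it was at -0.0129 with array weights, -0.0796 and -0.0741 in those 2 settings, and -0.0802 to 0.0733 with a library left out. The causes were not tested.

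No paired analysis was possible because the mouse numbers in the labels differ between the groups. The files hold no read counts, so counting error is unknown, and the value of a single library, such as those of *Ciita*, cannot be given an interval for it.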
